A study of Gallus gallus with 8 samples.

Results

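Chromosomes 6 to 10 of the chicken, the intermediate chromosomes between the large macrochromosomes and the small microchromosomes, were examined for Nrf2 CUT&Tag peaks in broiler liver. The set comprised every peak on these 5 chromosomes in 8 deposited peak lists, with peaks joined into 1 region wherever they overlapped or touched. This gave 7655 of the 66669 peaks (11.5%) and 3744 of the 30246 merged regions of the series (12.4%). CUT&Tag uses an antibody to bring a transposase to a bound protein, so that the DNA beside it is cut and tagged for sequencing. Each sample has 1 list, and the samples form a PT group and an HT group of 4 lists each, named after their titles. For HT the treatment label is high temperature. For PT the labels conflict, since the treatment label names phloretin, an apple polyphenol, the description says normal, and the treatment protocol of all 8 samples is high temperature. HT is therefore compared with PT by these names, and what the PT birds received is not stated. Strain beyond broiler, age, sex, duration and any pooling of birds do not appear in the labels.

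Nrf2 is a transcription factor of the cap'n'collar family that is held in the cytoplasm and degraded through Keap1 and the Cul3 ubiquitin ligase until oxidants or electrophiles modify Keap1. It then enters the nucleus, pairs with small Maf proteins and binds antioxidant response elements near genes for glutathione synthesis, peroxide removal and detoxification. In liver it is known for controlling the conjugation and export of reactive compounds. Of a chosen list of 50 genes of this pathway, 46 were in the RefSeq gene table of assembly GRCg7b, and 9 of them lie on these chromosomes. They include NFE2L2, the gene of Nrf2 itself, on chromosome 7, CUL3, a scaffold of the ligase that degrades Nrf2, on chromosome 9, and GCLM, the modifier subunit of the enzyme that begins glutathione synthesis, on chromosome 8. The others are the peroxiredoxin gene PRDX1 and the glutathione transferase gene MGST3 on chromosome 8, the mitochondrial peroxiredoxin gene PRDX3 and the hepatic export pump gene ABCC2 on chromosome 6, and the NADPH-producing IDH1 and the bilirubin-conjugating UGT1A1 on chromosome 7. The share of all genes that lie on these chromosomes was not computed, so no excess is read from the 9 of 46. The peaks are in galGal6 coordinates, so no peak was assigned to these or any other genes, and no sequence of a region is shown.

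The peak lists give no read counts, so the depth of each sample is unknown and no counting error could be attached to a value. Whole lists ran from 5120 to 11141 peaks, with the 4 HT lists longer than the 4 PT lists. Within a group, many peaks had the same start and end in several lists, and no label says that samples came from separate birds. The p-values below therefore compare these lists only, and their spread may be technical. Altogether 18 per-list values were tested by an exact two-sided permutation test of 4 against 4 lists, whose smallest possible p is 0.0286. That p was reached by 10 tests, and its Benjamini-Hochberg adjusted value over the 18 was 0.0514, so 0 tests passed 0.05 after adjustment.

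Every HT list held more peaks on chromosomes 6 to 10 than any PT list. The PT lists 1 to 4 held 733, 571, 868 and 821 peaks, and the HT lists 1 to 4 held 1116, 1229, 1042 and 1275. The means were 748.25 ± 131 in PT and 1165.5 ± 106 in HT (SD, n = 4 lists each), a ratio of 1.56 (exact permutation p = 0.0286, adjusted p = 0.0514). Cutting every list to its 5120 highest-scoring peaks removes an excess from list length by construction, so only shares of the cut lists are compared. It sets the whole of the shortest list against the higher-scoring part of each longer list. After this cut PT lists held 571, 571, 611 and 632 peaks here and HT lists 557, 538, 551 and 564. The difference was -43.75 (exact permutation p = 0.0286). Peaks covered 413 ± 64.4 kb of these chromosomes per PT list and 665 ± 48.2 kb per HT list (SD, n = 4), again without overlap between the groups (exact permutation p = 0.0286, adjusted p = 0.0514). At equal list length that difference shrank from 252 to 15.97 kb (exact permutation p = 0.114).

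**Figure D1:**
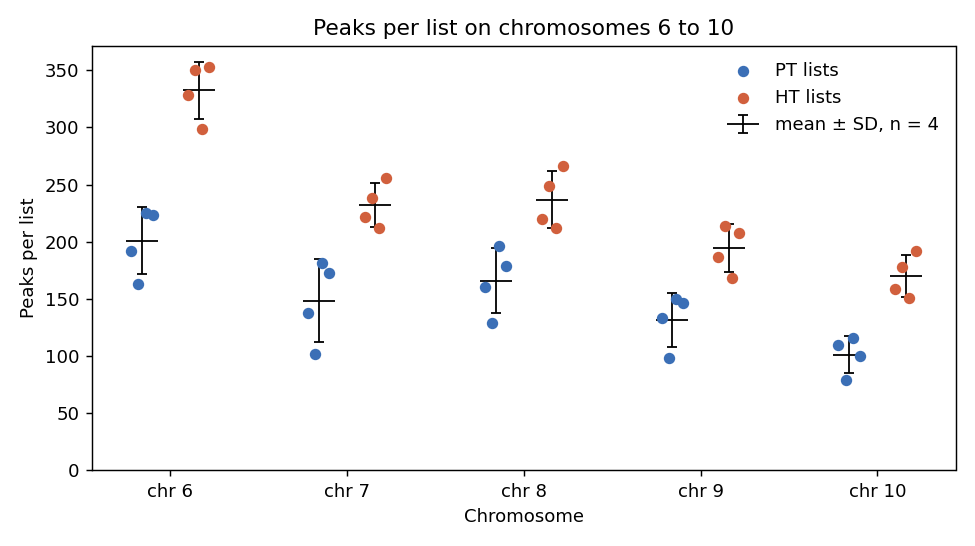
Number of peaks per list (vertical axis) on each of chromosomes 6 to 10 (horizontal axis), with 1 point per list and bars for the mean ± SD of 4 lists. On every chromosome the lowest HT list lies above the highest PT list, from 299 against 225 peaks on chromosome 6 to 151 against 116 on chromosome 10.

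Chromosome 6 carried the most peaks in both groups. Its PT lists held 192, 163, 225 and 223 peaks and its HT lists 328, 350, 299 and 353, a ratio of 1.66. Chromosome 7, whose last peak ends only slightly farther along, held 138, 102, 181 and 173 peaks in PT and 222, 238, 212 and 256 in HT, a ratio of 1.56. Per Mb up to the last peak end, chromosome 6 thus had 5.52 peaks in PT and 9.14 in HT, and chromosome 7 had 4.04 and 6.31, the lowest density of the 5 in each group.

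Chromosome 8 had the smallest relative gap between the groups. Its PT lists held 160, 129, 196 and 179 peaks and its HT lists 220, 249, 212 and 266, a ratio of 1.43. Chromosome 9 followed with 133, 98, 150 and 146 peaks in PT and 187, 214, 168 and 208 in HT, a ratio of 1.47. Chromosome 10, the shortest of the 5 by last peak end, held 110, 79, 116 and 100 peaks in PT and 159, 178, 151 and 192 in HT, and its ratio of 1.68 was the highest. The groups did not overlap on any of the 5 chromosomes (for each, exact permutation p = 0.0286, adjusted p = 0.0514). With HT list 2 left out on chromosome 8, the group means differed by 66.7 peaks, and with HT list 4 left out by 61.0. Without HT list 4 they differed by 75.5 peaks on chromosome 7, and without PT list 2 by 51.25 on chromosome 9. Each of these took the exact permutation p to 0.0571, although the remaining lists still did not overlap. With a list left out there are fewer relabellings, so p moves in coarser steps. At equal list length, which compares shares of the cut lists only, the difference stayed positive on chromosome 6 alone. There PT lists had 160.5 ± 5.196 peaks and HT lists 168.5 ± 7.77 (SD, n = 4, exact permutation p = 0.200). The other 4 chromosomes then had the higher mean in PT, and on chromosomes 8 and 10 every PT list exceeded every HT list (134.75 ± 6.65 against 114.5 ± 3.0 and 80.25 ± 0.957 against 69.5 ± 1.91).

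The share of chromosome 8 among the peaks of the 5 chromosomes was the only one of the 5 shares without overlap between the groups. It was 21.8%, 22.6%, 22.6% and 21.8% in the PT lists and 19.7%, 20.3%, 20.3% and 20.9% in the HT lists. The difference was -1.91 percentage points (exact permutation p = 0.0286, adjusted p = 0.0514), and -1.88 points at equal list length. In the highest-scoring 50% of each list it was -2.83 points (exact permutation p = 0.0571). Chromosome 6 took 27.0 ± 1.19% of the peaks in PT and 28.6 ± 0.702% in HT (SD, n = 4, exact permutation p = 0.0857). That difference of 1.61 points grew to 3.88 points in the highest-scoring 50% of each list and to 3.54 points at equal list length, where the groups no longer overlapped (exact permutation p = 0.0286 for both). The shares of chromosomes 7, 9 and 10 overlapped between the groups, with exact permutation p of 0.743, 0.0857 and 0.171.

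Among the numbered chromosomes, chromosomes 6 to 10 stood between chromosomes 1 to 5 and 11 to 33. Their HT to PT ratio of 1.56 compares with 1.42 on chromosomes 1 to 5 and 1.93 on chromosomes 11 to 33. Outside the numbered chromosomes the ratio was 2.49 on Z, 0.587 on W and 1.38 on scaffolds. For every 100 peaks on chromosomes 1 to 5 there were 23.5, 24.2, 23.9 and 24.2 peaks on chromosomes 6 to 10 in the PT lists and 26.6, 26.5, 26.2 and 25.6 in the HT lists. For every 100 peaks on chromosomes 11 to 33 there were 50.8, 50.8, 55.7 and 57.6 in PT and 43.2, 43.5, 41.6 and 45.4 in HT. Neither set of values overlapped between the groups (exact permutation p = 0.0286, adjusted p = 0.0514 for both). Both directions held at equal list length, with differences of 2.87 and -11.9 peaks (exact permutation p = 0.0286 for both). As a share of the whole list the 5 chromosomes differed by -0.350 points (exact permutation p = 0.343), with PT lists from 11.2% to 12.4% and HT lists from 11.04% to 11.5%. With equal list lengths that difference was -0.854 points (exact permutation p = 0.0286).

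Occupancy means which lists held a merged region. Regions of all 4 lists of a group, of both groups and of all 8 lists each took a somewhat smaller share here than in the series, and regions of a single list a larger one. The series also includes Z, W and scaffolds. Against the other numbered chromosomes, all of these shares but that of PT lists alone lay between chromosomes 1 to 5 and 11 to 33. On those 2 sets, all 8 lists held 1.34% and 2.91%, both groups 4.63% and 7.36%, and a single list 61.8% and 52.0%. The 4 HT lists alone held 11.7% and 16.9% there, and the 4 PT lists alone 6.97% and 6.17%. Of the 3744 regions, 463 were in all 4 HT lists and no PT list (12.4%), where 14% of all merged regions of the series were. Another 228 (6.09%) were in the 4 PT lists alone, where the series had 6.83%. All 8 lists held 74 (1.98%), where the series had 2.41%. A single list held 2263 of the regions (60.4%, against 55.9% in the series), 1256 of them an HT list and 1007 a PT list. Peaks of both groups were found in 199 regions (5.32%), against 6.81% in the series.

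**Figure D2:**
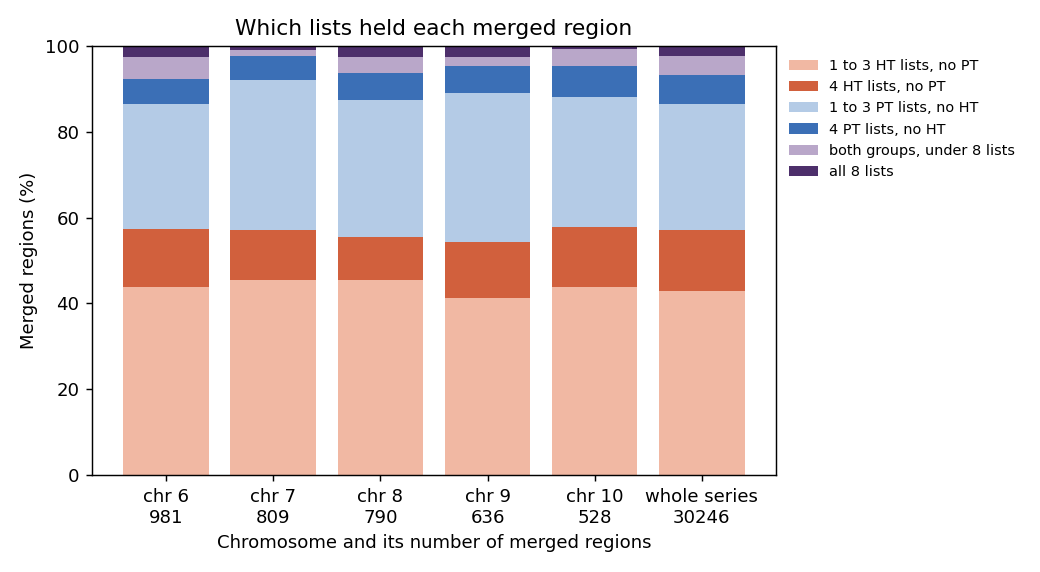
Percent of merged regions (vertical axis) on each chromosome and in the whole series by the lists that held them, with the number of regions under each bar. Regions of both groups make up the 2 purple segments at the top, from 2.35% on chromosome 7 to 7.75% on chromosome 6.

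The chromosomes differed in how much the groups shared. Chromosome 6 had 76 of its 981 regions in both groups (7.75%) and chromosome 8 had 50 of 790 (6.33%). Chromosome 7 had 19 of 809 (2.35%), the lowest share, with chromosomes 9 (29 of 636) and 10 (25 of 528) between. Part of this sharing lay in short clusters, described below. A single stretch of 131 kb held 25 of the 50 on chromosome 8, while chromosome 7 had no cluster. Regions in all 8 lists numbered 26 on chromosome 6, 20 on chromosome 8, 16 on chromosome 9, 8 on chromosome 7 and 4 on chromosome 10. Among regions held by all 4 HT lists, a PT list also held 21.1% over the whole series, 16.1% on chromosomes 1 to 5 and 20.5% on chromosomes 11 to 33. Here it held 40 of 172 on chromosome 6 (23.3%), 29 of 108 on chromosome 8 (26.9%) and 21 of 104 on chromosome 9 (20.2%), but 10 of 105 on chromosome 7 (9.52%) and 8 of 82 on chromosome 10 (9.76%). Among regions held by all 4 PT lists, an HT list also held 34.2% over the whole series, 23.5% on chromosomes 1 to 5 and 39.0% on chromosomes 11 to 33. Here it held 38 of 94 on chromosome 6 (40.4%), 31 of 80 on chromosome 8 (38.75%), 19 of 59 on chromosome 9 (32.2%), 12 of 57 on chromosome 7 (21.1%) and 8 of 46 on chromosome 10 (17.4%). Regions of all 4 HT lists only outnumbered those of all 4 PT lists only on each chromosome, with 132 against 56 on chromosome 6, 95 against 45 on chromosome 7, 79 against 49 on chromosome 8, 83 against 40 on chromosome 9 and 74 against 38 on chromosome 10. The ratios ran from 1.61 on chromosome 8 to 2.36 on chromosome 6. For the 5 chromosomes in sum it was 463 against 228, a ratio of 2.03. The whole series had nearly the same excess, 4234 against 2066, a ratio of 2.05. It was 1.68 on chromosomes 1 to 5 and 2.74 on chromosomes 11 to 33. With 5120 peaks from every list the sums over the 5 chromosomes were 167 in HT only (7.39%) and 181 in PT only (8.01%). Under the same setting these kinds made up 9.07% and 8.61% of all regions of the series.

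By covered bases, too, chromosomes 6 and 8 were shared the most between the groups, while chromosomes 7, 9 and 10 were lower and close together. The Jaccard index, the shared bases of a pair of lists over all bases they cover, had a mean of 0.420 for the 6 PT pairs (0.315 to 0.558), 0.464 for the 6 HT pairs (0.405 to 0.612) and 0.101 for the 16 pairs of a PT and an HT list (0.0888 to 0.115). Between the groups it averaged 0.125 on chromosomes 6 and 8, 0.0800 on chromosome 9, 0.0766 on chromosome 10 and 0.0762 on chromosome 7. Chromosome 7 also had the lowest mean within each group, 0.386 for PT pairs and 0.416 for HT pairs. For regions with exactly 1 peak from each list of a pair, both ends matched to the base in 58.5% to 83.9% of these per PT pair and 60.6% to 75.1% per HT pair. Between the groups 8 of 1668 such comparisons matched (0.480%). All 8 came from chr7:199840-200938 (galGal6), which the 4 PT lists and 2 HT lists called with the same ends, while the remaining 2 HT lists ended at 200918.

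Part of the regions of both groups lay in a few short clusters, and the larger part, 117 of 199, lay outside them. A cluster was taken as a chain of at least 5 regions of both groups with gaps of at most 50 kb, a definition set after the positions were seen. There were 7 such clusters, with 807 kb in all, or 0.544% of the length up to the last peak of the 5 chromosomes. They held 82 of the 199 regions of both groups (41.2%) and 36 of the 74 regions of all 8 lists (48.6%). Inside them each PT list had 79 to 82 peaks and each HT list 104 to 113, a ratio of 1.35. Outside them the ratio was 1.58, and 3.27% of the regions had peaks of both groups. Since clusters were chosen by regions of both groups, more sharing inside them follows from the choice. The choice can also lower the ratio, but that was not tested, and the ratio ran from 0.957 to 1.83 between clusters.

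The cluster with the most shared regions was chr8:11301515-11432292 (galGal6), 131 kb long. It held 41 regions, of which 25 had peaks of both groups and 10 were in all 8 lists. Each of the 4 PT lists had 22 peaks there, and the HT lists had 27, 28, 30 and 33. They covered 16.6 kb per PT list and 28.2 kb per HT list on average. Among the 10 regions of all 8 lists the widest was chr8:11375437-11380068 with 4632 bp and the narrowest chr8:11404448-11404805 with 358 bp. Of the regions in this stretch, 4 were in all 4 HT lists and no PT list, and 0 in all 4 PT lists and no HT list.

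**Figure D3:**
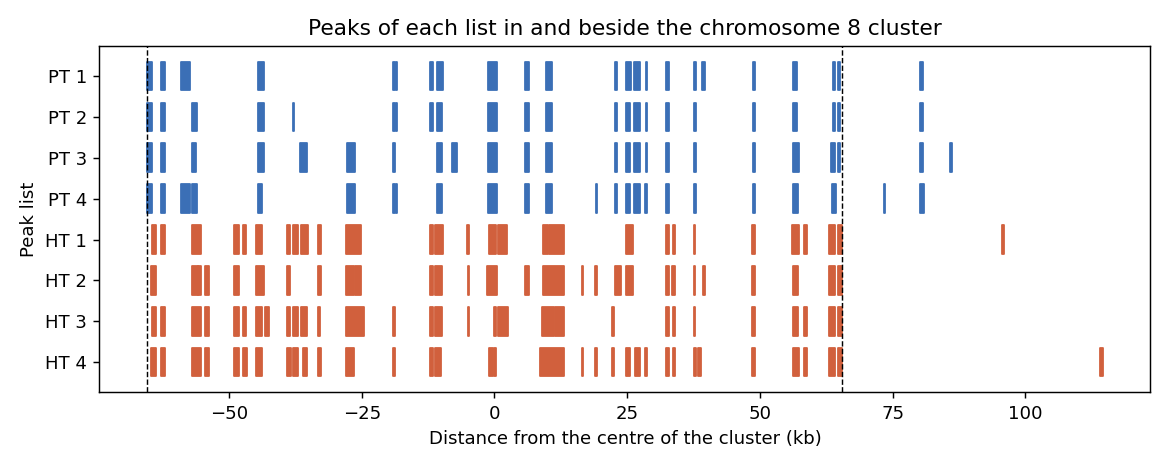
Peaks of each list (rows, PT above HT) by distance in kb from the centre of the chromosome 8 cluster, whose limits are the dashed lines. Peaks stand close together in all 8 lists between the lines and few lie beside them, and the HT lists show additional and wider blocks, with 27 to 33 peaks against 22 in each PT list.

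Chromosome 9 carried a long and a short cluster. The long one, chr9:915702-1127072, held 45 regions over 211 kb, with 15 of both groups and 9 in all 8 lists. PT lists had 17, 20, 18 and 17 peaks in it and HT lists 35, 31, 34 and 32, a ratio of 1.83, and 13 of its regions were in all 4 HT lists only against 3 in all 4 PT lists only. The short one, chr9:5458120-5465748, was 7.63 kb long and held 5 regions, 4 of them in all 8 lists, with 5 or 6 peaks in every list.

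Chromosome 6 carried 3 clusters. In chr6:904374-1061267 PT lists had 10, 10, 8 and 9 peaks and HT lists 13, 13, 13 and 12, and the mean covered length was 4.53 kb in PT and 13.7 kb in HT. In chr6:12797300-12916757 the groups had equal means, 12.0 ± 1.41 peaks each (SD, n = 4), and 7 regions were in all 8 lists. The last, chr6:20792262-20849177, had 4 to 6 peaks per PT list and 5 to 7 per HT list. Chromosome 10 had a single cluster, chr10:539027-663369, with 8 regions of both groups but 0 in all 8 lists, and chromosome 7 had none.

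The median distance to the nearest region of both groups was 522 kb for the 463 regions of all 4 HT lists only. It was 589 kb for the 228 regions of all 4 PT lists only. Long distances follow in part from construction, because only 199 regions had peaks of both groups and a region touching one would be joined to it. No expected distance was computed. Within 10 kb of a region of both groups lay 39 (8.42%) of the former and 26 (11.4%) of the latter. Regions held by fewer lists of a single group lay farther away. Their median distances were 634 kb in HT and 751 kb in PT, with 4.55% and 3.49% within 10 kb. For the 74 regions of all 8 lists the median distance to another region of both groups was 5.90 kb.

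Along the chromosomes the excess of HT peaks was uneven. Of 152 windows of 1 Mb with a peak, the HT mean was the higher in 121, the PT mean in 27, and 4 were equal. In 46 windows (30.3%) every HT list had more peaks than every PT list, where 36% of all windows on the chromosomes of the series did. In 1 window (0.658%) every PT list had more, where the series had 1.22%. Windows of the first kind made up 15 of 37 on chromosome 6, 12 of 37 on chromosome 7, 8 of 22 on chromosome 10, 6 of 31 on chromosome 8 and 5 of 25 on chromosome 9.

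**Figure D4:**
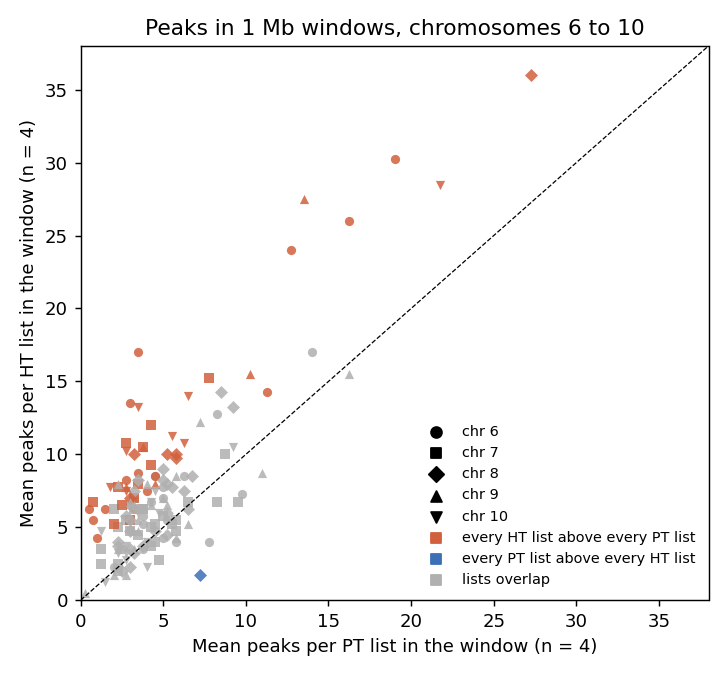
Mean peaks per HT list (vertical axis) against mean peaks per PT list (horizontal axis) in each 1 Mb window of chromosomes 6 to 10, with the symbol giving the chromosome and the colour giving whether the 4 lists of each group overlap. Most windows lie above the dashed line of equality, 46 of them without overlap, and a single window at 7.25 PT and 1.75 HT peaks is without overlap below it.

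The window with PT above HT was the one from 13 to 14 Mb on chromosome 8. PT lists had 7, 7, 6 and 9 peaks in it and HT lists 2, 2, 1 and 2. It held 5 regions of all PT lists only and 0 of all HT lists only. The first of these was chr8:13193224-13193790 and the last chr8:13906990-13907612, and they were 512 to 782 bp wide. The median was 495 bp for all regions of chromosome 8, most of them of a single list. It was 500.5 bp for regions of all 4 PT lists only on the 5 chromosomes. The chromosome 8 cluster lies in the window from 11 to 12 Mb, which had the most peaks of its chromosome, and there PT lists had 26, 26, 29 and 28 peaks and HT lists 32, 37, 35 and 40.

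The opposite pattern was seen from 24 to 25 Mb on chromosome 6, where PT lists had 2, 3, 6 and 3 peaks and HT lists 16, 16, 19 and 17. No region there was shared by the groups, and 9 were in all 4 HT lists only, from chr6:24045407-24046076 to chr6:24820550-24821084. Their widths ran from 410 to 730 bp. Chromosome 7 had its widest gap from 30 to 31 Mb, with 4, 2, 3 and 2 peaks in PT and 11, 10, 10 and 12 in HT, and 8 regions of all 4 HT lists only. On chromosome 10 the window from 19 to 20 Mb had 3, 1, 3 and 7 peaks in PT and 13, 19, 11 and 10 in HT. On chromosome 9 it was the window from 1 to 2 Mb, which holds the end of the long cluster, with 12, 15, 12 and 15 peaks in PT and 28, 24, 27 and 31 in HT.

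Elsewhere the windows with the most peaks in all were the first Mb of chromosomes 6 and 10 and the one from 22 to 23 Mb on chromosome 7. In the first Mb of chromosome 6, PT lists had 19, 18, 18 and 21 peaks and HT lists 34, 29, 30 and 28. The first Mb of chromosome 10 had 21, 23, 22 and 21 peaks in PT and 25, 31, 28 and 30 in HT, with 12 regions of all 4 HT lists only and 8 of all 4 PT lists only. From 22 to 23 Mb on chromosome 7 there were 9, 7, 6 and 9 peaks in PT and 14, 18, 12 and 17 in HT. The groups overlapped in 0 of these windows.

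The PT mean was also the higher in the windows from 30 to 31 Mb on chromosome 6 (7.75 ± 2.22 against 4.0 ± 2.0 peaks, SD, n = 4), 5 to 6 Mb on chromosome 7 (9.50 ± 2.89 against 6.75 ± 2.22), 15 to 16 Mb on chromosome 9 (11 ± 2.45 against 8.75 ± 2.36) and 6 to 7 Mb on chromosome 10 (4.0 ± 1.41 against 2.25 ± 0.957). In each of these the lists of the groups overlapped or tied. They were picked as the windows with the lowest difference on their chromosome.

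Chromosome ends held a larger share of the regions of both groups than of those of a single group. Within 1 Mb of position 1 or of the last peak end lay 19 of the 74 regions of all 8 lists (25.7%) and 34 of the 125 other regions of both groups (27.2%). The regions of all 4 HT lists only had 61 of 463 there (13.2%) and those of all 4 PT lists only 27 of 228 (11.8%). Regions of fewer lists of a single group had 131 of 1650 in HT (7.94%) and 92 of 1204 in PT (7.64%). The clusters chr6:904374-1061267, chr9:915702-1127072 and chr10:539027-663369 lie wholly or partly in these ends, so part of the sharing there is theirs. Of all peaks, 11.6% to 15.4% per PT list and 12.2% to 13.3% per HT list lay in these ends (exact permutation p = 0.400). Chromosome 10, where these ends take up the largest part of the length, had the highest share in both groups, with 30.0 ± 5.68% in PT and 25.8 ± 1.09% in HT (SD, n = 4), against means of 7.63% to 14.7% on the other 4.

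Within their own lists, peaks of these chromosomes ranked near the middle by the score of the authors' peak caller. The median percentile was 48.6, 46.7, 48.8 and 47.8 in the PT lists and 47.8, 45.9, 49.1 and 48.5 in the HT lists (exact permutation p = 0.857). By chromosome, the HT lists placed chromosome 6 at a median percentile of 50.3 to 55.8 and chromosome 10 at 39.5 to 43.1. The PT lists placed chromosome 6 at 46.0 to 49.8 and chromosome 10 at 43.4 to 47.9. The share of peaks in the part of their list above the 90th percentile was lowest on chromosome 10 in HT (5.33 ± 1.14%) and in PT was 6.15 ± 0.808% there and 6.23 ± 1.14% on chromosome 7 (SD, n = 4). It was highest on chromosome 6 in HT (11.1 ± 0.452%) and on chromosome 8 in PT (11.8 ± 1.46%). Since the lists differ in length, these ranks are not read as changes between the groups.

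Peak width barely separated the groups. The median peak was 486, 475, 477 and 485 bp wide in the PT lists and 489.5, 484, 487 and 486 bp in the HT lists (exact permutation p = 0.171). At equal list length the difference of 5.88 bp turned to -42.75 bp (exact permutation p = 0.0286), with mean medians of 465.25 bp in PT and 422.5 bp in HT. That setting kept the shortest list whole but only the higher-scoring part of each longer list, so it compared unlike parts of the lists. In the highest-scoring 50% of every list the difference was -12.1 bp (exact permutation p = 0.314). Chromosome 9 went the other way from the rest, with medians of 496 to 506.5 bp in PT and 477.5 to 492 bp in HT, a pattern picked after seeing the values and not tested.

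The regions in all 8 lists were wide and ranked high by score. Their median width was 1291 bp, against 506 bp for regions of all HT lists only and 500.5 bp for those of all PT lists only. A gap of this kind arises partly by construction, because joining more peaks widens a region and a wide region is more easily met by every list. The median of the mean score percentile was 84.7 for regions of all 8 lists, 51.1 for HT only, 56.5 for PT only and 37.0 for regions of a single list. This gap is partly built in too. Each list entered with its best peak in the region, and a high-scoring site is more easily called in every list. Peak ends were identical in at least 2 lists for 97.2% of the regions held by all 4 HT lists only and 98.7% of those held by all 4 PT lists only. In 267 (57.7%) and 142 (62.3%) they were identical in all 4.

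**Figure D5:**
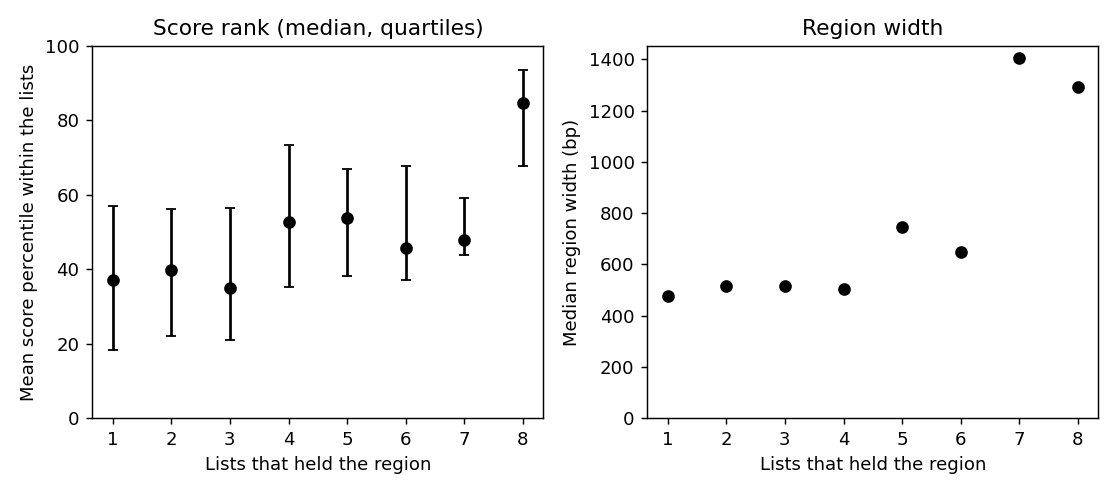
Left, the median and quartiles of the mean score percentile of merged regions by the number of lists that held them; right, their median width in bp. Regions of 1 to 3 lists sit at median percentiles of 34.95 to 39.7 and regions of all 8 lists at 84.7, while the median width is 475 to 516 bp up to 4 lists and 1291 bp for 8. Between them the rise is not steady, with percentiles of 52.6, 53.9, 45.6 and 47.9 at 4, 5, 6 and 7 lists. Widths are 747, 650 and 1406 bp at 5, 6 and 7 lists, which hold only 35, 17 and 23 regions.

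On each chromosome the highest-ranking regions by mean percentile within their lists are given by position, with the scores as the authors' caller gave them. Among regions of all 8 lists, chr10:20861796-20862938 ranked highest, with scores of 1577, 1585.86, 1577 and 1566.23 in the PT lists and 1793.11, 1721.58, 1758.53 and 1752.75 in the HT lists. It lies near the far end of the chromosome, 2.97 kb from chr10:20852489-20858828, the widest region of chromosome 10 with 6340 bp (scores 212.03 to 296.13). On chromosome 7 the first was chr7:19668-24406, at the very start of the chromosome, with 1101.03 to 1111.99 in PT and 1394.82 to 1448.86 in HT, followed by chr7:199809-200938.

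Chromosome 6 had chr6:20835502-20836259 (537.57 to 557.41 in PT, 731.02 to 842.22 in HT), inside its most distal cluster, and chr6:1155692-1160297, which was 4606 bp wide and merged 15 peaks. On chromosome 8 the pair was chr8:1570351-1571929 and chr8:1153150-1154357. In every PT list the first of these scored above the second (849.32 to 1042.29 against 349.24 to 433.23), and in every HT list below it (336.98 to 419.06 against 552.13 to 611.33). Chromosome 9 had chr9:5462138-5463515 and its neighbour chr9:5463524-5464235, both in the short cluster.

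The highest-ranking regions of all 4 HT lists only were chr6:517671-518928 (scores 164.94, 196.54, 177.3 and 174.57 in HT lists 1 to 4) and chr6:20921311-20921734 (165.26 to 179.95). The latter lies 14.1 kb from a region of both groups. On chromosome 7 they were chr7:5201545-5201911 (139.96 to 212.39), 1610 kb from the nearest region of both groups, and chr7:36735257-36737046 (136.82 to 158.83), near the last peak of the chromosome. Chromosome 8 had chr8:386155-390732, 4578 bp wide and 1.18 kb from a shared region, and the narrow chr8:422628-422830. Chromosomes 9 and 10 had chr9:21200547-21200926, chr9:13360020-13362032, chr10:11261052-11261485 and chr10:19746085-19746336, with scores of 75.56 to 197.12. In 0 of these 10 regions did all 4 HT lists give the same ends, against 57.7% of all 463 regions of all 4 HT lists only.

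The highest-ranking regions of all 4 PT lists only were mostly narrow, with 7 of 10 under 260 bp and a median of 225 bp, against 429 bp for the HT regions chosen in the same way. First was chr9:5455560-5456581, the widest of the 10 at 1022 bp, with scores of 149.81, 196.57, 238.93 and 218.89 in PT lists 1 to 4. It lies 1.54 kb from the short chromosome 9 cluster. Next was chr9:15687025-15687230, 206 bp wide, where PT lists 1 and 4 both gave 162.78 and PT lists 2 and 3 both gave 175.78. The others were chr6:11490858-11491069, chr6:17504443-17504645, chr7:8388491-8388739, chr7:31429818-31430336, chr8:21966365-21966566, chr8:28697006-28697243, chr10:20158903-20159113 and chr10:16098424-16098755, with scores of 67.73 to 157.07. Peak ends were identical across the 4 PT lists in 6 of the 10, close to the 62.3% of all 228 regions of all 4 PT lists only. How duplicate reads were treated is unknown, so a high rank here does not show strong binding.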

How the data were processed

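Nrf2 CUT&Tag peak lists of 8 broiler liver samples were used, 4 PT and 4 HT, with groups and replicate numbers from the titles. Per the submitters' processing notes, cutadapt 1.9.2, Bowtie2 2.2.4 and galGal6 were used; the deposited peak names begin with MACS, with version, settings and control not stated. Every deposited list gives chromosome, start, end, name and a score of unstated scale from the authors' caller (40 to 3100). Whether each was called on its sample alone is not stated. Starts were raised by 1 base. Peaks that overlapped or touched were merged, and a list held a region from 1 bp on. Score percentiles were taken within each list.

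Group means were compared by exact two-sided permutation over 70 relabellings, with Benjamini-Hochberg adjustment over 18 tests. Ends meant 1 Mb from position 1 or the last peak end, since chromosome lengths were not used here. Regions named were the 2 per chromosome with the highest mean percentile that all HT lists only, all PT lists only and all 8 lists held. Windows named were, per chromosome, those with the highest and lowest difference. Members, lists and tests were chosen with earlier results of these data known. The code was tested on simulated lists. Dixon's test of 36 groups of 4 lists passed for 0. The gene table is of GRCg7b and served only for names and their chromosomes. The tools were Python 3.11.15, pandas 2.3.3, numpy 2.4.6 and, for figures, matplotlib 3.10.9.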

Additional observations from a re-analysis of the deposited data

How the results depend on the processing

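Of 234 alternative values of the 18 tested differences (HT minus PT), 187 kept their direction and their side of 0.05, but 144 of the 234 come from leaving out a list, which tests little when peak ends recur between lists. Of 45 alternative counts of regions, 37 stayed within 1.5 times. Every count from leaving out a list was among these, so all counts that moved came from the other settings. Where no construction is named, the cause was not tested.

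With 5120 peaks from every list, which removes the excess of HT peaks by construction, peaks per list differed by -43.75 in all and by 8, -15.25, -20.25, -5.5 and -10.75 on chromosomes 6 to 10 in turn. Covered length then differed by 15.97 kb, median width by -42.75 bp, the share of the list by -0.854 points, the share in the outer 1 Mb by 1.26 points and the median percentile by 2.17. The shares of chromosomes 6, 7, 9 and 10 among the 5 differed by 3.54, -1.17, 0.401 and -0.894 points, and regions of HT lists only numbered 167.

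In the highest-scoring 50% of each list, the shares of chromosomes 6 to 10 in turn differed by 3.88, -1.19, -2.83, 0.476 and -0.337 points (exact permutation p = 0.0571 for chromosome 8), median width by -12.1 bp and the median percentile by 2.69. Having fewer peaks, it left 196 HT-only, 105 PT-only and 46 regions of all 8 lists. A cover of 50% left 45 of the last, and asking that no lists share peak ends left 13, 3 and 1. Without the outer 1 Mb the share of chromosome 9 differed by -1.69 points (exact permutation p = 0.0286). Without peaks under 260 bp the median width differed by -1.88 bp.

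Leaving out each list in turn gave differences of 68.0 to 94.3, 58.4 to 80.75 and 51.25 to 71.25 peaks on chromosomes 7, 8 and 9 (exact permutation p up to 0.0571). Differences in share ranged from 1.26 to 2.14 points on chromosome 6, -0.330 to 0.740 on 7, -1.20 to -0.758 on 9 and 0.501 to 1.44 on 10. Differences in the outer 1 Mb share ranged from -1.45 to -0.195 points and those in the median percentile from -0.578 to 0.473. The lowest p of these was 0.0286 in the exact permutation test, for the share of chromosome 6 without PT list 2, of 9 without HT list 2 and of 10 without PT list 1, and for the outer 1 Mb without PT list 3.

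With the replicate block the differences were the same, 417.25 peaks in all, 131.75, 83.5, 70.75, 62.5 and 68.75 by chromosome, -1.91 points for chromosome 8, 252 kb, and 2.31 and -10.3 peaks per 100 on chromosomes 1 to 5 and 11 to 33. Their p of 0.125 is the smallest an exact sign-flip permutation of 4 pairs can give. Deviations of same-numbered lists over the 152 windows correlated at -0.158 to -0.0243, and those of differently numbered lists at -0.172 to 0.155. Peak counts per window cannot decide whether equal numbers mark a shared batch, and no pairing is read from them. Read depth is unknown, and its part in the length of a list was not tested.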

Other observations

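The widest merged region of chromosome 6 was chr6:1144336-1152238, with 7903 bp and peaks of all 8 lists, 3.45 kb from chr6:1155692-1160297. On chromosome 8 it was chr8:9292677-9299142, with 6466 bp, which joined peaks of 3 PT and 3 HT lists at a mean score percentile of only 35.8. On chromosome 9 it was chr9:1123587-1127072, with 3486 bp, at the end of the long cluster and at a mean percentile of 60.3. On chromosome 10 the widest region, chr10:20852489-20858828, had a mean percentile of 98.8, and on chromosome 7 the widest, chr7:19668-24406, one of 99.9.

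Peaks under 260 bp made up 6.34 ± 1.73% of the peaks of a PT list and 4.35 ± 0.408% of those of an HT list on these chromosomes (SD, n = 4, not tested). In HT they were most frequent on chromosome 6 (5.41 ± 0.490%) and in PT on chromosome 9 (7.04 ± 1.83%). Of the merged regions, 18 of the 228 of all 4 PT lists only (7.89%) and 17 of the 463 of all 4 HT lists only (3.67%) were this narrow, and 0 of the 199 with peaks of both groups. The last value is partly set by construction, because joining peaks with different ends widens a region.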
